A study of Mus musculus with 3 samples.

Results

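Mitochondria-rich barcodes were cell barcodes with more than 10% of their unique molecular identifiers (UMIs, 1 per captured transcript molecule) in the 13 protein-coding genes of the mitochondrial genome, whose symbols start with mt-. They were chosen by this measured share alone and made up 298 of the 2222 barcodes in the deposited matrices. Of these, 127 had over 10 and at most 50% mitochondrial UMIs, and 171 had over 50%. The other 1924 barcodes had at most 10% and served as the comparison. All barcodes came from Fgf4 -/- cells of E14tg2a, a mouse embryonic stem cell line, seeded in ES + LIF medium and then kept for 24 h in N2B27 with Chiron, 1 µg/ml heparin and 0, 5 or 50 ng/ml FGF4. No wild-type cells and no cells outside this medium were analysed here, whether the cells came from 1 clone was not given in the labels, and each dose was 1 droplet library. No barcode sequence occurred in more than 1 library (0 shared).

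The mitochondrial genome encodes subunits of respiratory complexes I, III and IV and of ATP synthase, and its transcripts are made and translated inside the mitochondrial matrix. All other proteins of the organelle, its ribosomal proteins among them, are encoded in the nucleus, translated in the cytosol and imported. Cytosolic mRNA can leave a cell whose plasma membrane has opened, while RNA enclosed in organelles or held in the nucleus is less free to do so, and a high mitochondrial share is therefore a common quality criterion in droplet data. No stain, sort or viability readout was available here, so the state of the cells behind these barcodes was not tested.

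The barcodes were unevenly spread over the doses. The 10 to 50% class held 4 of 373 barcodes at 0 ng/ml (1.07%, 95% exact binomial interval 0.293 to 2.72), 58 of 874 at 5 ng/ml (6.64%, 5.08 to 8.49) and 65 of 975 at 50 ng/ml (6.67%, 5.18 to 8.42). The over 50% class held 8 barcodes at 0 ng/ml (2.14%, 0.930 to 4.18), 75 at 5 ng/ml (8.58%, 6.81 to 10.6) and 88 at 50 ng/ml (9.03%, 7.30 to 11). Both classes together formed 3.22% of barcodes at 0 ng/ml (1.67 to 5.55), 15.2% at 5 ng/ml (12.9 to 17.8) and 15.7% at 50 ng/ml (13.5 to 18.1). With 1 library per dose, dose and library cannot be told apart, and no test between doses was made. These intervals cover counting error only. The barcodes nearest the lower limit had 10.0, 10.2 and 10.2% mitochondrial UMIs inside it and 9.98, 9.97 and 9.96% outside it. Those nearest the upper limit had 51.5, 52.5 and 52.5% above it and 49.3, 48.5 and 47.5% below it.

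**Figure D1:**
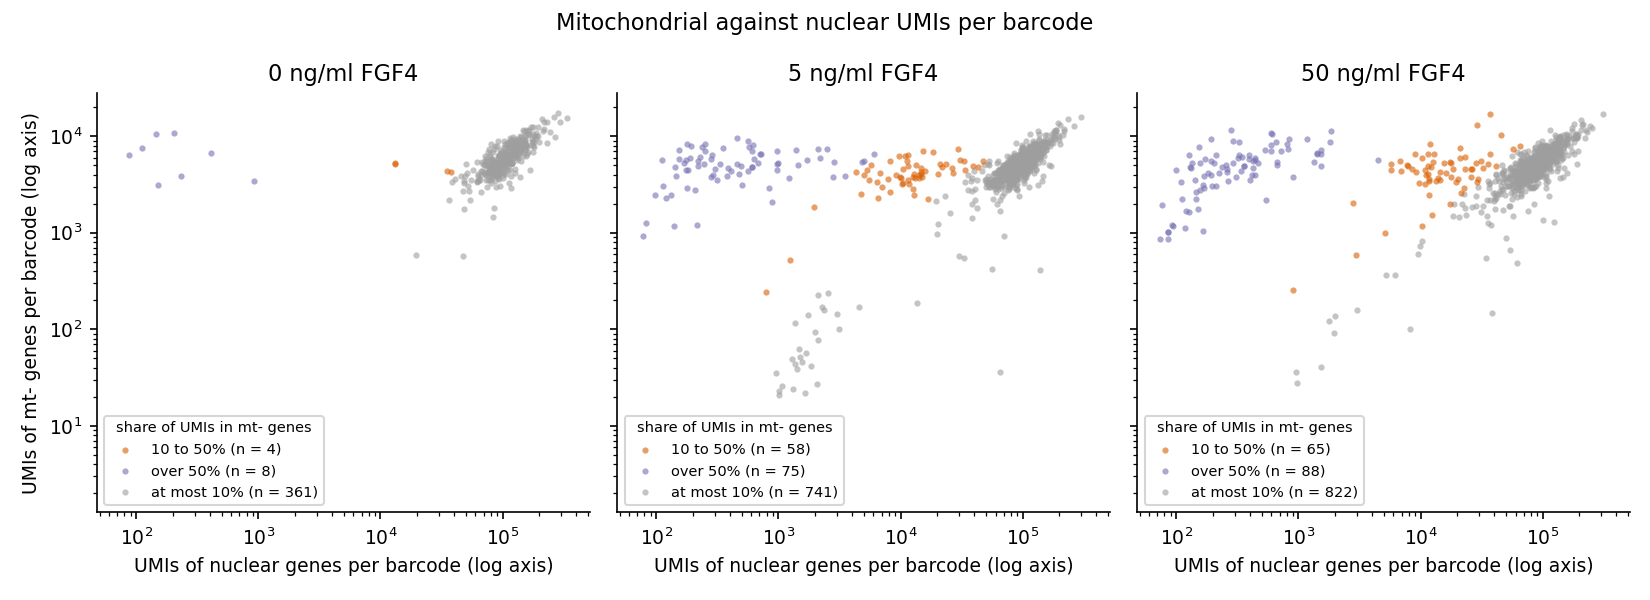
UMIs of mt- genes (vertical log axis) against UMIs of nuclear genes (horizontal log axis), 1 point per barcode, 1 panel per FGF4 dose, coloured by class. Mitochondria-rich barcodes lie at about the same height as most barcodes with at most 10% and to their left, with medians of 286 nuclear UMIs (over 50%) and 14467 nuclear UMIs (10 to 50%) against 87862 (at most 10%) at 50 ng/ml.

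The classes differed far less in mitochondrial than in nuclear UMIs. These values follow in part from the rule, which used the mitochondrial sum and the total, and are given as a description. Given in the order 0, 5 and 50 ng/ml, the median barcode of the 10 to 50% class had 4759, 4118 and 4598 mitochondrial UMIs. In the over 50% class the medians were 6543, 5139 and 4995.5, and in the at most 10% class they were 5863, 4893 and 5034.5. Most members lay inside the middle 95% of mitochondrial UMIs of the at most 10% barcodes of their own library. This held in the 10 to 50% class for 4 of 4 barcodes at 0 ng/ml, 58 of 58 at 5 ng/ml and 58 of 65 at 50 ng/ml, and in the over 50% class for 8 of 8, 75 of 75 and 76 of 88. For nuclear UMIs the counts were 0 of 4, 55 of 58 and 16 of 65, and 0 of 8, 9 of 75 and 0 of 88. At 5 ng/ml the middle 95% was wide, at 97 to 10276.5 mitochondrial and 2108.5 to 179056 nuclear UMIs. Lying inside it therefore says little at that dose.

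Nuclear transcripts were where the barcodes differed. The median barcode held 24147.5, 12191 and 14467 nuclear UMIs in the 10 to 50% class at 0, 5 and 50 ng/ml, and 177, 382 and 286 in the over 50% class. The at most 10% class held 103162, 91547 and 87862. The 10 to 50% medians were 4.27, 7.51 and 6.07-fold lower than those of the at most 10% class, and the over 50% medians 583, 240 and 307-fold lower. Genes detected followed, with medians of 5109, 4182.5 and 4347 genes in the 10 to 50% class, 157, 292 and 234 in the over 50% class, and 8432, 8130 and 7906.5 in the at most 10% class. When every barcode was thinned to 1000 nuclear UMIs the order turned round, with 705.5, 743 and 723 genes in the 10 to 50% class against 636, 646 and 647 in the at most 10% class. In the over 50% class only 13 of 75 barcodes at 5 ng/ml and 10 of 88 at 50 ng/ml were deep enough to be thinned, with medians of 713 and 739.5 genes.

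The markers of the barcodes fitted mouse embryonic stem cells in all 3 libraries for the 10 to 50% class. Summed over 8 markers (Pou5f1, Sox2, Nanog, Zfp42, Esrrb, Utf1, Dppa5a and Tdgf1), the class held 5616, 4317 and 4306 nuclear CPM (UMIs scaled to an equal nuclear total, mitochondrial genes left out), and the at most 10% class 5104, 5038 and 4849. The over 50% class held 4194 nuclear CPM at 5 ng/ml and 4764.5 at 50 ng/ml, with each of the 8 markers detected. At 0 ng/ml its 8 barcodes had 7 marker UMIs in all, and 5 of the 8 markers were at 0. The markers mt-Nd1, mt-Co1 and mt-Atp6, which the rule used, summed to 66702, 95686 and 89550 CPM of all UMIs in the 10 to 50% class, 405909, 355568 and 383050 in the over 50% class, and 22181, 21453 and 22950 in the at most 10% class. The trophectoderm markers Cdx2, Elf5, Krt8, Krt18 and Tfap2c summed to 45.8 to 60.6 nuclear CPM in the 10 to 50% class, 0 to 97.9 in the over 50% class (at most 6 UMIs) and 47.0 to 61.0 in the at most 10% class, and the whole list of 8 trophectoderm genes had 9, 53 and 62 UMIs in the 10 to 50% class at 0, 5 and 50 ng/ml. Of 7 fibroblast markers, which feeder cells would carry, 0, 1 and 2 UMIs were seen in the 10 to 50% class and 0 in the over 50% class, against 84, 176 and 213 in the at most 10% class. The sums differ widely in depth. As nuclear CPM the 10 to 50% class had 0, 1.17 and 1.67 against 2.08, 2.52 and 2.84. Counts in the mitochondria-rich classes are thus too few to read a difference in these 7 markers. The whole list of 12 fibroblast genes had 14, 102 and 125 UMIs in the 10 to 50% class, and its share of nuclear UMIs was 1.74, 1.81 and 1.57 times that of the at most 10% class (95% intervals 0.948 to 2.92, 1.47 to 2.20 and 1.30 to 1.87). Fbln1, which encodes the matrix protein fibulin-1, held 14, 98 and 122 of these UMIs. In the over 50% class the list had 1, 6 and 3 UMIs, and its part in the results that follow was not tested. Scrublet called 0 doublets among the mitochondria-rich barcodes, against 12, 7 and 26 in the at most 10% class.

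Within the mitochondrial RNA, a small set of transcripts took up different shares of the sum. The rule used only the sum over the 13 genes and not its division. In both mitochondria-rich classes and in all 3 libraries, mt-Atp8, mt-Nd4l and mt-Atp6 had larger shares than in the at most 10% class. mt-Co1 and mt-Nd4 had smaller ones. The share of mt-Co2 was larger in the over 50% class. In the 10 to 50% class its log2 ratios were only 0.030, 0.038 and 0.003 at 0, 5 and 50 ng/ml. For mt-Atp8 at 0 ng/ml, the at most 10% share of 0.269% lay inside the exact binomial interval of either class. These intervals were 0.246 to 0.412% (10 to 50%) and 0.262 to 0.359% (over 50%). With 3 library pairs an exact permutation test cannot go below a two-sided p of 0.25, so no test was made and the spread over libraries is given.

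The transcripts with the largest mean gain in share are the shortest of the 13, mt-Nd4l (297 bases) and mt-Atp8 (204 bases), and each shares bases with the longer gene next to it, with which it is carried on a common mRNA in mammals. They are printed in full (GENCODE M21, GRCm38, the assembly of mm10), with capitals for the bases also annotated in the neighbour, because a read in those bases can be assigned to neither gene alone. mt-Atp8 (ENSMUSG00000064356) occupies chrM:7766-7969 on the plus strand and its last 43 bases are also the start of mt-Atp6, and mt-Nd4l (ENSMUSG00000065947) occupies chrM:9877-10173 on the plus strand and shares its last 7 bases with mt-Nd4.
mt-Atp8: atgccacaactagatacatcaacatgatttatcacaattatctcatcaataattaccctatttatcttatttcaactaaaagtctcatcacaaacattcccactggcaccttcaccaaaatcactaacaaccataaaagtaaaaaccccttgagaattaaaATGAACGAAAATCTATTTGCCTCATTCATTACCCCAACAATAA
mt-Nd4l: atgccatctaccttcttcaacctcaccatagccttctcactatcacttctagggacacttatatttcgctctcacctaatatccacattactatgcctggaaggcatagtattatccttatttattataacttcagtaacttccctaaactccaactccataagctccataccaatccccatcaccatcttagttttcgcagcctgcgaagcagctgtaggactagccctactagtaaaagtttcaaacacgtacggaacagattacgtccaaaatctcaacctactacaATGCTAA

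mt-Atp8, a subunit of ATP synthase, held 0.321, 0.416 and 0.255% of mitochondrial UMIs in the 10 to 50% class at 0, 5 and 50 ng/ml, 0.308, 0.338 and 0.224% in the over 50% class, and 0.269, 0.263 and 0.169% in the at most 10% class. The log2 ratio of its share to that of the at most 10% class was 0.50 ± 0.22 in the 10 to 50% class and 0.32 ± 0.11 in the over 50% class (SD over 3 libraries). mt-Nd4l, a subunit of complex I, held 0.574, 0.555 and 0.455% in the 10 to 50% class, 0.581, 0.483 and 0.399% in the over 50% class, and 0.433, 0.412 and 0.329% in the at most 10% class, with log2 ratios of 0.43 ± 0.03 and 0.31 ± 0.10 for the mitochondria-rich classes. Within each dose its share in either mitochondria-rich class lay above that of the at most 10% class. The longer partners did not move alike, since mt-Atp6 gained 0.15 ± 0.09 and 0.16 ± 0.015 on the log2 scale while mt-Nd4 lost share.

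mt-Co1 and mt-Nd4 lost share in both classes, mt-Nd3 in the 10 to 50% class and mt-Cytb in the over 50% class, in all 3 libraries each. mt-Co1, the catalytic subunit of complex IV, held 13.3, 12.3 and 12.7% in the 10 to 50% class, 12.4, 10.6 and 10.8% in the over 50% class, and 14.4, 13.2 and 13.0% in the at most 10% class. Its log2 ratio was -0.09 ± 0.04 in the 10 to 50% class and -0.27 ± 0.05 in the over 50% class. mt-Nd4 of complex I held 4.97, 5.20 and 5.59%, then 4.36, 5.11 and 5.21%, against 5.36, 5.98 and 6.21% in the at most 10% class. In the over 50% class mt-Nd4 stood at -0.26 ± 0.04 and mt-Cytb, the mitochondrially encoded subunit of complex III, at -0.17 ± 0.02. mt-Co2, another complex IV subunit, went the other way in that class, at 0.11 ± 0.01, and mt-Co3 at 0.07 ± 0.02. The genes mt-Nd1, mt-Nd2, mt-Nd5 and mt-Nd6 had ratios of either sign among the libraries in both classes, as did mt-Co3 and mt-Cytb in the 10 to 50% class and mt-Nd3 in the over 50% class.

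Summed over the 13 genes, the part of the mitochondrial UMIs that would have to change gene to turn one profile into the other was 2.21, 4.13 and 3.38 percentage points between the 10 to 50% and the at most 10% class, and 4.64, 4.86 and 5.06 between the over 50% and the at most 10% class. Between libraries of the at most 10% class it was 2.88 for 5 against 0 ng/ml, 3.72 for 50 against 0 ng/ml and 1.03 for 50 against 5 ng/ml. The over 50% values thus exceeded each difference between libraries, and the 10 to 50% values did not all do so.

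**Figure D2:**
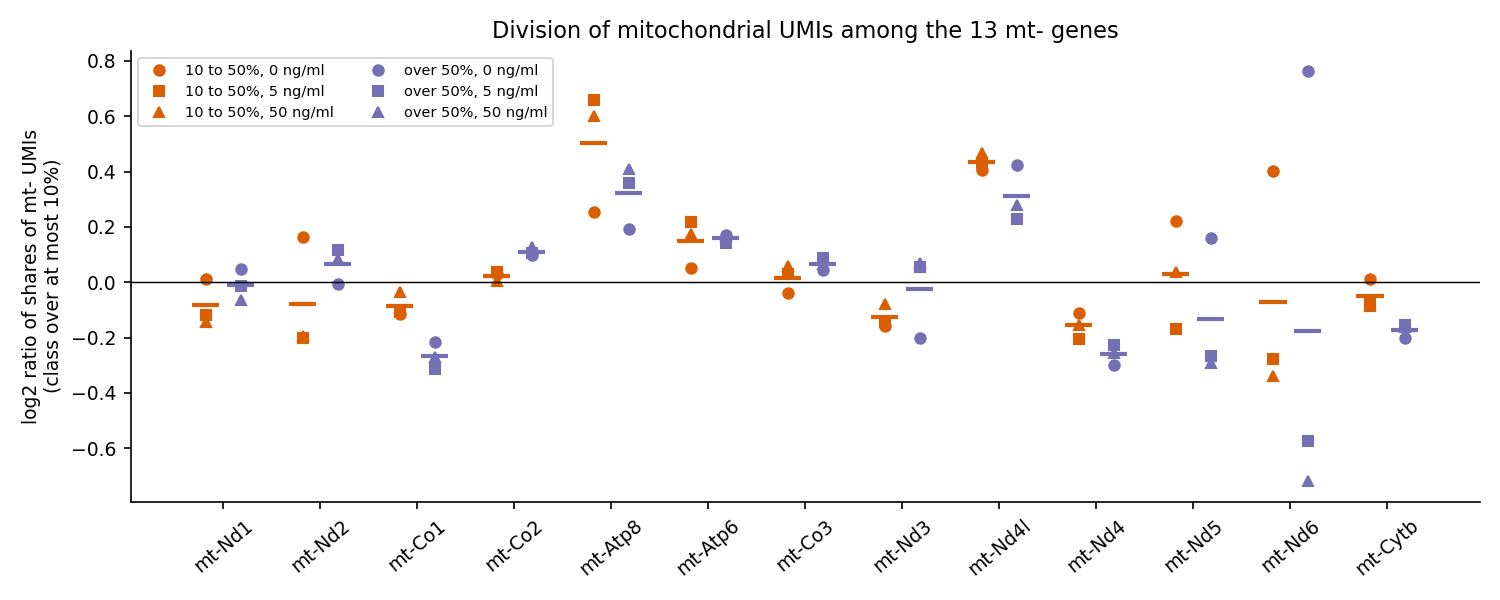
Log2 ratio of each mt- gene's share of mitochondrial UMIs in the 10 to 50% (orange) and over 50% (purple) class to its share in the at most 10% class of the same library, with the library's dose as symbol and the mean as a bar. mt-Atp8 and mt-Nd4l lie above 0 and mt-Co1 and mt-Nd4 below 0 for all 6 points each, while mt-Nd6 runs in the over 50% class between 0.76 at 0 ng/ml and -0.72 at 50 ng/ml.

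The difference in nuclear UMIs was not even across transcripts when counted per barcode. Relative to the mean barcode of the at most 10% class, a 10 to 50% barcode held 22.2, 15.6 and 20.2% of the nuclear UMIs and an over 50% barcode 0.253, 0.866 and 0.525%. For all mitochondrial genes the figures were 76.0, 82.1 and 91.5%, and 104.5, 100.8 and 97.1%. Gm42418 and Lars2 were among the transcripts that stood above the nuclear total in each library and class. Some gene lists did so too. Chromatin and large nuclear protein genes had 1.19, 1.86 and 1.47 times the nuclear share of the at most 10% class in the 10 to 50% class. In the over 50% class the ratios were 2.22, 2.53 and 2.38. Gm42418 stood at 52.4, 144 and 138% in the 10 to 50% class and at 9.97, 19.5 and 13.6% in the over 50% class, and Lars2 at 51.0, 143 and 130% and at 25.5, 31.3 and 19.3%. Cytosolic ribosomal protein mRNAs were at 21.6, 9.52 and 15.9%, and at 0.210, 0.508 and 0.361%. Fewer molecules in a droplet and less capture of those present cannot be told apart in these counts.

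**Figure D3:**
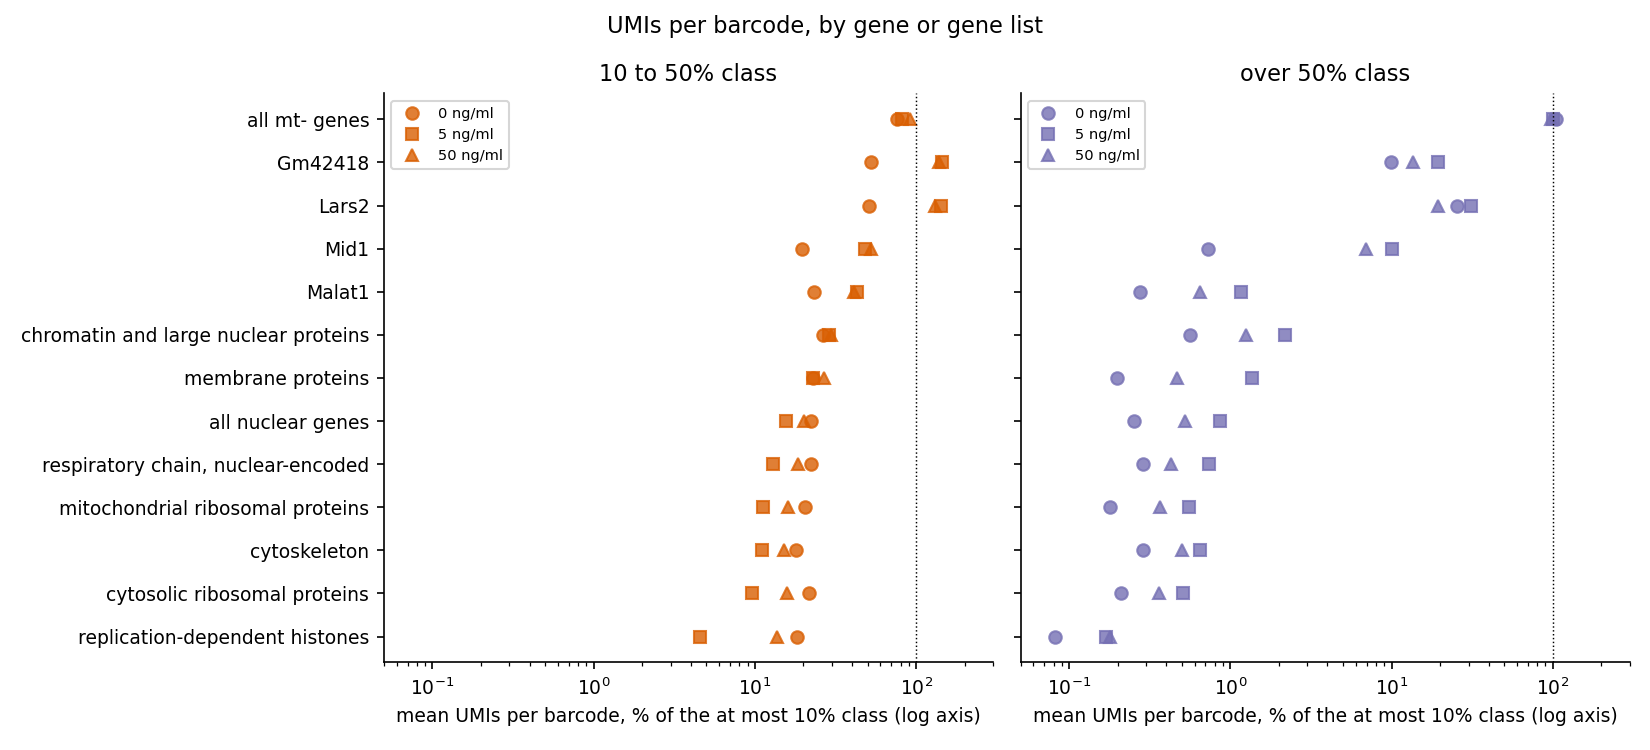
Mean UMIs per barcode of single genes and gene lists as a percentage of the mean barcode of the at most 10% class in the same library (log axis), with the dose as symbol and the dotted line at 100%. Mitochondrial genes lie near the line in both classes, Gm42418 and Lars2 above the other nuclear entries, and histone cluster genes at the low end of the 10 to 50% class.

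To compare the make-up of the nuclear RNA, UMIs were summed per library and class and tested with edgeR's quasi-likelihood test with the library as a block and Benjamini-Hochberg adjustment over all genes tested, and a gene was called at an adjusted p under 0.05. The rule used the nuclear total of a barcode but not its division among genes. Between the 10 to 50% and the at most 10% class the libraries at 5 and 50 ng/ml were fitted, since the library at 0 ng/ml had only 4 barcodes in the 10 to 50% class. With 1 library per dose, the p-values rest largely on a variance estimated over many genes, and not on replicates of a dose. The fitted libraries also differ in dose. Because UMIs were summed over barcodes, the spread between barcodes is not part of the fit, and a call can rest on few barcodes. The same holds for the fits of the over 50% class. Of 14782 genes tested, 1520 were called higher (10.3%) and 2514 lower (17%), 27.3% in all. The scaling set the balance: with totals in place of TMM factors 3923 were higher and 702 lower, the median log2 ratio of all genes being -0.02 with TMM and 0.46 with totals. Under TMM, median-of-ratios and total scaling alike, 1497 genes were called higher (10.1%) and 702 lower (4.75%), and counts in square brackets are of these. With the library at 0 ng/ml and its 4 barcodes in place of that at 5 ng/ml 171 genes were higher and 121 lower, and in place of that at 50 ng/ml 72 were higher and 74 lower, each time with 1 library dropped and another brought in at once.

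Transcripts annotated within a ribosomal RNA repeat on chromosome 17 were higher in both mitochondria-rich classes, and Gm42418 had the most UMIs of all nuclear genes in the over 50% class of each library. Gm42418 (ENSMUSG00000098178, mm10 chr17:39846958-39848788, plus strand) is annotated as a lincRNA, and AY036118 (ENSMUSG00000105361, chr17:39847113-39848035, minus strand) lies opposite to it over 923 bases. The stretch below straddles the end of AY036118, at chr17:39847961-39848110, and is small-subunit ribosomal RNA sequence. Capitals mark the bases annotated in both genes, where the strand of the read alone assigns a UMI.
Gm42418: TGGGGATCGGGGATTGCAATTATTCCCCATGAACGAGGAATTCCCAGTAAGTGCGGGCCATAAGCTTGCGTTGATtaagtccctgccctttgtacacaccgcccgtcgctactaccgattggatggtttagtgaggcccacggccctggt

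Gm42418 had 3050, 20321 and 12358 nuclear CPM in the 10 to 50% class at 0, 5 and 50 ng/ml, 50840, 49500 and 47029 in the over 50% class, and 1291, 2200 and 1808 in the at most 10% class. The levels of the 3 classes did not overlap, and in the over 50% class about the same level held at every dose, 4.70 to 5.08% of all nuclear UMIs. Against the at most 10% class the log2 ratio with TMM factors was 2.50 in the 10 to 50% class (adjusted p = 1.22e-10, edgeR). In the over 50% class it was 3.73 (adjusted p = 1.09e-20, edgeR), and fold sizes of that class depend on the scaling, as given below. AY036118 had 1222, 1881 and 1314 nuclear CPM in the 10 to 50% class and 884, 1746 and 1209 in the over 50% class, against 200.1, 298 and 224 in the at most 10% class (log2 ratios 2.12, adjusted p = 6.04e-25, and 1.71, adjusted p = 3.67e-06). Gm26917, annotated next to this pair at chr17:39843013-39846341, was higher too (log2 ratio 1.44, adjusted p = 2.56e-12). Per barcode the Gm42418 level varied widely: the share of nuclear UMIs ran from 0.0194 to 6.64% with a median of 0.788% in the 10 to 50% class at 50 ng/ml, from 0 to 16.7% with a median of 3.63% in the over 50% class, and from 0 to 4.56% with a median of 0.106% in the at most 10% class. Single barcodes of the at most 10% class thus reached the level of mitochondria-rich ones.

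Lars2, the leucyl-tRNA synthetase of mitochondria (ENSMUSG00000035202, chr9:123366927-123462666, plus strand), was the other transcript that stood out in both classes. It had 121, 746 and 387 nuclear CPM in the 10 to 50% class, 5305, 2938 and 2204 in the over 50% class, and 52.7, 81.3 and 60.1 in the at most 10% class, again with no overlap between classes. At 0 ng/ml the over 50% value rests on 12 UMIs. The folds against the at most 10% class were 5.50 (adjusted p = 9.58e-58) and 23.1 (adjusted p = 4.12e-52, edgeR). Lars2 was called in all 19 settings tried for the 10 to 50% class and in all 18 for the over 50% class. These counts include the main fit and settings that repeat it. An example is leaving out barcodes found in more than 1 library, of which there were 0. No transcript of Lars2 in GENCODE M21 shares a run of 31 bases with a mitochondrial gene or with Gm42418 on either strand (0 runs). The mitochondrial genes compared included the annotated ribosomal RNA gene mt-Rnr2. Nuclear ribosomal RNA other than Gm42418 and sequence outside annotated transcripts were not compared. The part of such reads in the Lars2 count was therefore not tested. A list of 24 other genes for the expression and copying of the mitochondrial genome had calls near the share over all genes. Of the 23 tested, 3 were called higher (Polrmt, the mitochondrial RNA polymerase gene, with the DNA polymerase and helicase genes Polg and Twnk) and 5 lower, among them Tfam (-0.43) and Slirp (-1.14) [3 and 1]. Among all genes 10.3% were higher and 17% lower. The list median was -0.29 with TMM and 0.19 with totals, against -0.02 and 0.46 for all genes.

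RNAs known to be retained in the nucleus were enriched beside these, while 10.3% of all genes were called higher and 17% lower. Of 21 tested, 13 were called higher and 0 lower [12 and 0], with a median log2 ratio of 0.73 against -0.02 for all genes. Without Gm42418 and AY036118, a split made after their values were seen, 11 of 19 were higher and the median was 0.64. Tug1, a long noncoding RNA, had 30.3, 118 and 115 nuclear CPM in the 10 to 50% class and 32.0, 31.7 and 29.4 in the at most 10% class, so the excess was seen at 5 and 50 ng/ml and not at 0 ng/ml (log2 ratio 1.46, adjusted p = 2.37e-20). Kcnq1ot1, the antisense transcript of the Kcnq1 imprinted domain (chr7:143203458-143296549, minus strand), had 616, 855 and 511 nuclear CPM against 249.7, 276 and 283, higher at every dose (0.76, adjusted p = 4.1e-05). Snhg14, from the Snrpn imprinted domain, had a log2 ratio of 1.32 and Firre, an X-linked chromatin-associated RNA, 1.27. Malat1, a nuclear speckle RNA, had 4232, 8845 and 5791 nuclear CPM against 4043, 3229 and 2830. Its log2 ratio of 0.76 (adjusted p = 0.0409) was not called with median-of-ratios factors. Gas5 at -0.13 and Lncenc1 at 0.08 were not called with TMM factors, though both were higher with totals. Of 16 genes that host small nucleolar RNAs, 7 were higher and 4 lower [7 and 0], with a median of 0.13.

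Genes of large nuclear and of membrane proteins had more higher than lower calls, while 10.3% of all genes were higher and 17% lower. Among 26 chromatin regulators and other large nuclear proteins 10 were called higher and 0 lower [10 and 0], with a median of 0.30. They were 4 histone methyltransferase genes (Ash1l at a log2 ratio of 1.02, Kmt2a, Kmt2c and Kmt2d) with Arid2, Chd2, Tet1, Tet2, Ep300 and Huwe1. Kmt2a had 90.9, 157 and 124 nuclear CPM in the 10 to 50% class and 64.2, 59.5 and 55.9 in the at most 10% class. Among 23 membrane proteins, whose mRNAs are translated at the endoplasmic reticulum, 8 were higher and 2 lower [8 and 1]. The higher ones include Igf2r (1.03), the E-cadherin gene Cdh1 (0.96) and the transferrin receptor gene Tfrc (0.82). The lower ones were L1td1 (-1.17) and Basp1 (-0.85), of which L1td1 encodes an RNA-binding protein and Basp1 a protein attached to the inner face of the membrane. Of 25 genes of the endoplasmic reticulum and secretory pathway, 6 were higher and 6 lower [6 and 3].

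Across protein-coding genes of at least 20 nuclear CPM, the ratio followed transcript length. In 5 groups of 1315 or 1316 genes by longest annotated transcript, with median lengths of 1348.5, 2452, 3470, 4601 and 7273 bases, the median log2 ratios were -0.77, -0.37, -0.11, 0.15 and 0.40. In the group with the shortest transcripts 75.2% of genes were called lower and 1.75% higher, and in the group with the longest 5.02% were lower and 45.5% higher. Without ribosomal protein and respiratory chain genes the medians still ran from -0.72 to 0.41. The difference between the longest and the shortest group was 1.18 on the log2 scale and between 0.84 and 1.44 in 18 other settings, some of which repeat the main fit. Within each library, the shortest group held 41.7, 29.8 and 35.6% of the nuclear UMIs of the 10 to 50% class and 44.2, 43.7 and 43.8% of those of the at most 10% class, and the longest group 10.5, 14.9 and 12.3% against 8.89, 8.87 and 8.71%. The same direction was therefore seen in the library that was not fitted. Length goes along with what genes encode, and its part in the list values here was not tested.

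**Figure D4:**
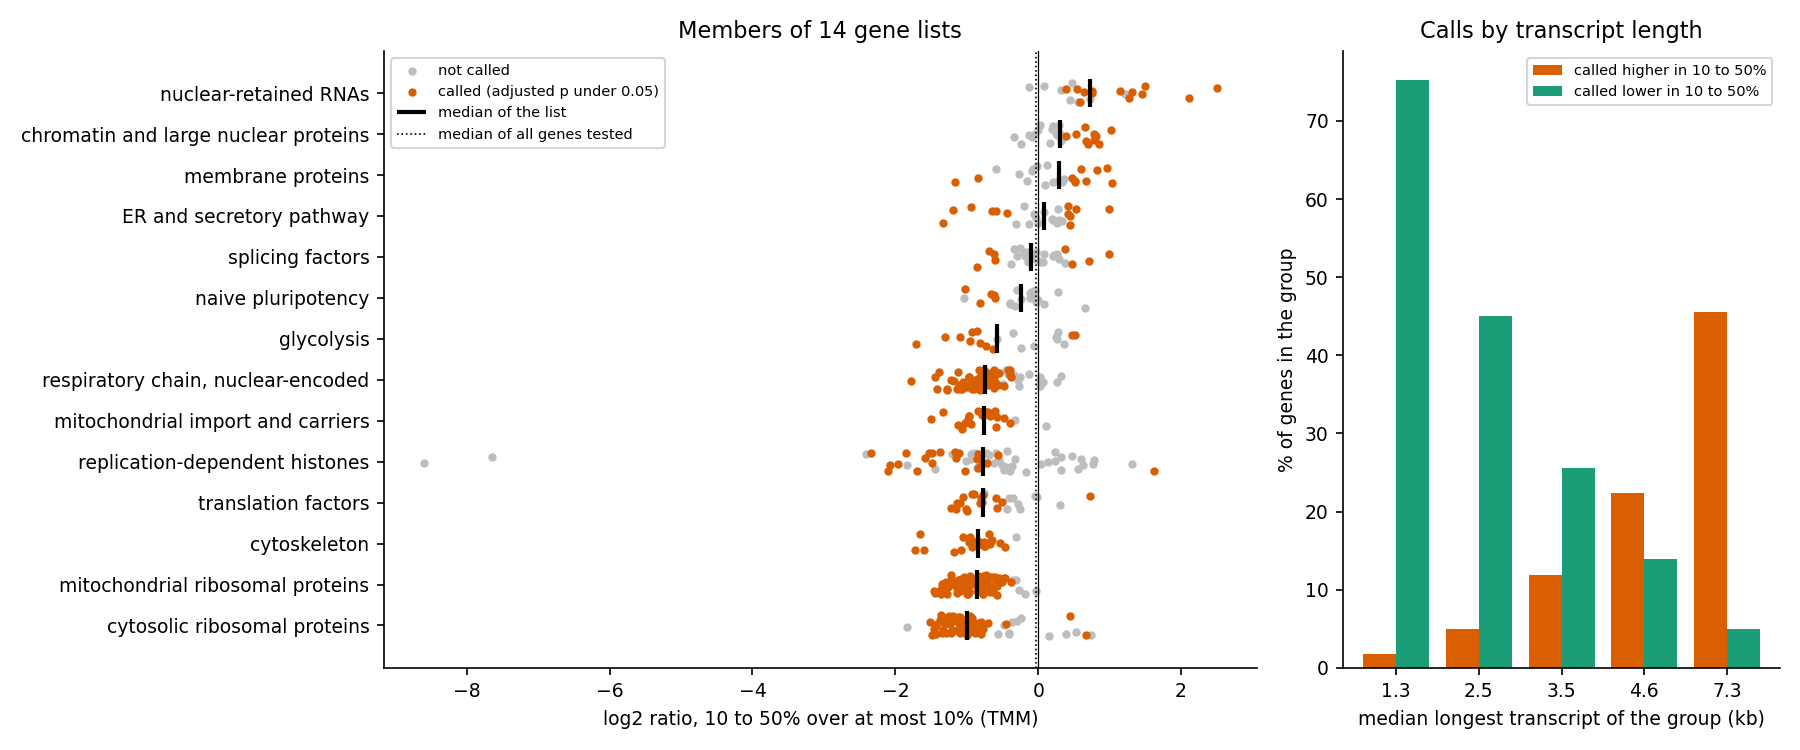
Left, log2 ratio of each tested member of 14 gene lists, 10 to 50% over at most 10% class, edgeR with TMM factors, with called genes in orange and list medians as bars (2 histone genes near -8 had 0 UMIs in the class). Right, percentage of genes called higher (orange) and lower (green) in 5 groups of rising transcript length, from 75.2% lower in the shortest to 45.5% higher in the longest group.

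Most cytosolic ribosomal protein mRNAs were lower, beside 17% of all genes. Of 91 tested genes whose symbols are Rps or Rpl with a number, 77 were called lower and 2 higher [61 and 2], with a median of -0.99. The 2 higher ones, Rps6kb1 and Rps6ka3, encode kinases and no ribosomal subunit. The genes took 26.0, 15.6 and 19.9% of nuclear UMIs in the 10 to 50% class and 26.7, 25.6 and 25.3% in the at most 10% class. Rps12 had 5363, 2300 and 3486 nuclear CPM against 5772, 5821 and 5741 (log2 ratio -1.51, adjusted p = 8e-06). At 0 ng/ml the sum rests on few barcodes, 52.0% of its ribosomal protein UMIs coming from 1 of the 4.

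Most nuclear-encoded genes of the mitochondrial ribosome, the respiratory chain and import were lower in the fitted libraries, beside 17% of all genes. Of 78 mitochondrial ribosomal protein genes 73 were lower and 0 higher [36 and 0], median -0.86. Mrpl30, of the large mitochondrial subunit, had 111, 80.9 and 81.6 nuclear CPM against 140.1, 157 and 163 (-1.46, adjusted p = 2.68e-17). Of 77 nuclear-encoded respiratory chain and ATP synthase genes 63 were lower and 0 higher [26 and 0], median -0.75. Atp5e, the epsilon subunit of ATP synthase, had 394, 178 and 266 nuclear CPM against 493, 553 and 535 (-1.78, adjusted p = 4.71e-21), lower at each dose. As a whole the respiratory list took 2.91, 2.35 and 2.53% of nuclear UMIs in the 10 to 50% class, 3.27, 2.42 and 2.27% in the over 50% class, and 2.90, 2.84 and 2.77% in the at most 10% class. At 0 ng/ml its share was therefore not lower in either mitochondria-rich class, with ratios of 1.00 (95% interval 0.968 to 1.04) and 1.13 (0.886 to 1.42). Not all members were lower: Cox4i1 of complex IV stood at 0.07 and Sdha of complex II at 0.03, neither called with TMM factors and both higher with totals (0.55 and 0.51). With totals the medians of the cytosolic ribosomal, mitochondrial ribosomal and respiratory lists were -0.51, -0.38 and -0.26, against 0.46 for all genes. Of 24 import and carrier genes 22 were lower and 0 higher [9 and 0], led by Timm13 (-1.50), a chaperone of the intermembrane space, while at 0 ng/ml the share ratio of the list was 0.964 (0.894 to 1.04). The 12 mitochondrial chaperones and proteases had 3 called lower, 0 higher and a median of -0.02, equal to that of all genes.

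Cytoskeletal, translation factor and histone mRNAs were lower as well. Of 23 cytoskeletal genes 22 were lower [10], median -0.84. Tmsb4x, which encodes the actin-sequestering peptide thymosin beta-4, had 101, 258 and 367 nuclear CPM against 286, 684 and 784 (-1.73, adjusted p = 6.45e-18), and it was called in all 19 settings. Pfn1, the profilin gene, stood at -1.60, Vim at -1.17, Actg1 at -1.06 and Actb at -0.64 (adjusted p = 0.0403), the last not called with the other scalings. Of 26 translation factors and associated genes 16 were lower and 1 higher [8 and 1], the higher one being the helicase gene Eif4a2 (0.72). Of 61 histone cluster genes 22 were lower and 1, Hist1h4n, higher [12 and 1]. Hist1h2ap, a replication-dependent H2A gene whose mRNA lacks a poly(A) tail in dividing cells, had 2182, 639 and 983 nuclear CPM against 2524, 2400 and 2054 (-1.96, adjusted p = 5.47e-14). At 0 ng/ml 86.0% of the histone UMIs of the class came from 1 of its 4 barcodes. Genes for the S phase machinery outside the histone clusters had 12 of 42 lower and 3 higher [0 and 3], beside 17% lower and 10.3% higher among all genes.

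Other single genes named by size, direction in both fitted libraries and level were Mir17hg (3.30-fold higher), the host of a microRNA cluster, the chloride channel gene Clcn2 (3.41), the testis gene Spata31d1a (4.11), Ints6l (3.08), Prex2 (3.07), Nup210 (2.99) of the nuclear pore, AI838599 (2.95), Unc13b (2.92) and Scamp1 (2.90). Ccser1 came out 15.1-fold higher, with 53 of its 57 UMIs at 50 ng/ml. Ccser1 and Scamp1 had log2 ratios of -0.20 and -0.24 against barcodes of like depth. Lower by the same rule were Slamf1 (4.65-fold lower), the neuronal noncoding RNA Bc1 (4.45), Hist1h1b (4.30), Hist2h2aa1 (4.22), Gng3 (4.19), Eef1akmt4 (3.68), Itgb1bp1 (3.61), Cystm1 (3.44) and Hcfc1r1 (3.42). Slamf1 rests on 14 UMIs in the class and Bc1 on 25.

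Among pluripotency and FGF response genes 4 of 10, 5 of 21 and 7 of 18 were called in 3 lists, beside 27.3% of all genes. With totals the list medians were 0.23, 0.24 and 0.28 for general, naive and FGF genes, below the 0.46 of all genes. Of 10 general pluripotency genes 4 were lower and 0 higher [2 and 0]. Pou5f1, which encodes OCT4, had 232, 287 and 307 nuclear CPM against 215, 413 and 405, lower in the fitted libraries alone (log2 ratio -0.94, adjusted p = 2.05e-07). Sox2 was at -0.32 (adjusted p = 0.12). Of 21 naive pluripotency genes 5 were lower [0], Nanog among them (-0.62). Of 18 FGF and ERK response genes 3 were higher (Spry4, Spred1 and Etv1) and 4 lower (Dusp4, Dusp6, Ccnd1 and Ccnd2) [3 and 0], with a median of -0.20. Of 20 p53 targets 5 were higher (Mdm2, Trp53inp1, Eda2r, Zmat3 and Plk2) and 4 lower, among them Bax (-1.05) [5 and 1].

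All 7 tested genes of the 2-cell-like programme, such as Zscan4c, were called higher with a median of 3.16, and this rests on single barcodes. At 50 ng/ml 1175 of their 1434 UMIs in the 10 to 50% class came from 1 barcode and 1426 from 2, and 1 UMI was seen at 0 ng/ml and 1 at 5 ng/ml. With DESeq2 none of the 7 was called in either direction, and with at most 10% barcodes of like depth as the comparison 4 of the 6 that could be tested were called lower. Of 11 tested genes of the primitive endoderm list 4 were higher and 1 lower [4 and 0], while its 6 defining markers (Gata6, Gata4, Sox17, Sox7, Pdgfra and Dab2) had 0 UMIs in the class at 0 and 5 ng/ml and 7 UMIs at 50 ng/ml. The 4 higher genes were Col4a1, Lamb1 and Fn1 of the extracellular matrix and the receptor gene Lrp2. For comparison, 10.3% of all genes were called higher.

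Depth differed between the classes. Thinning every barcode to 1000 nuclear UMIs left 160 genes higher and 377 lower of 5711 tested, and taking only at most 10% barcodes within the nuclear depth of the class (2, 10 and 31 barcodes at 0, 5 and 50 ng/ml) left 328 higher and 452 lower of 8130 tested. In the second of these fits 40 of 87 ribosomal protein genes, 20 of 78 mitochondrial ribosomal protein genes and 17 of 77 respiratory chain genes were lower (1 higher), and 7 of 19 nuclear-retained RNAs and 6 of 26 chromatin genes higher. The genes called in all 19 settings, some of which repeat the main fit, were AY036118, Kcnq1ot1, Khdc4, Lama5, Lars2, Snhg14 and Trpm7 on the higher side. On the lower side they were Atp5e, Fabp5, H2afx, Hikeshi, Hsd17b14, Mrps18c, Ndufb1-ps, Psma2, Rbm3, Selenow, Timm13, Tmsb10, Tmsb4x, Txnl4a and Vim.

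The over 50% barcodes carried so few nuclear UMIs that only the strongest differences could be read. Their sums were 2262, 61273 and 42187 nuclear UMIs at 0, 5 and 50 ng/ml, against 40295779, 69878159 and 75097684 in the at most 10% class. With all 3 libraries fitted, 102 of 13008 genes were called higher (0.784%) and 504 lower (3.87%), 4.66% in all, and 3684 of the genes had 0 UMIs in the class. Lower calls depended on the scaling: 178 genes were higher and 4 lower with median-of-ratios factors, and 638 higher and 150 lower with totals. Under all 3 scalings 102 were higher (0.784%) and 4 lower (0.0308%). Without the library at 5 ng/ml 3 genes were higher and 0 lower, and without that at 50 ng/ml 14 were higher and 2 lower.

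Gm42418 and Lars2 were the only genes called in each of the 18 settings tried, some of which repeat the main fit. The setting with at least 10 UMIs in every sum tested only 23 genes. For all other genes its filter settled this count in advance. Mid1, a microtubule-associated ubiquitin ligase gene on the X chromosome (chrX:169685199-170005736, plus strand), had 884, 3737 and 4006 nuclear CPM in the over 50% class against 307, 323 and 301 in the at most 10% class (6.17-fold higher, adjusted p = 3.99e-14). At 0 ng/ml the Mid1 value is 2 UMIs. Ttn, which encodes the giant muscle protein titin, was 5.02-fold higher with 73 UMIs in the class, Rsrp1 4.50-fold with 77, Ahnak 5.04-fold with 22 and the agrin gene Agrn 3.78-fold with 31. Arap2, Rnpepl1, Rnf139, Epb41, Hyou1 and Ptk7 also met the naming rule, each with 7 to 16 UMIs. No transcript of Mid1, Ttn, Rsrp1 or Ahnak shares a run of 31 bases with a mitochondrial gene or Gm42418 (0 runs).

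As lists, 7 of 19 tested nuclear-retained RNAs and 5 of 26 chromatin genes (Atrx, Chd7, Kmt2a, Ash1l and Chd2) were higher and 0 of either list lower, under all 3 scalings alike, beside 0.784% of all genes higher. Atrx, which encodes a chromatin remodeller, had 442, 1322 and 1090 nuclear CPM against 267, 321 and 338 (log2 ratio 1.08, adjusted p = 0.0119). Of 91 tested cytosolic ribosomal protein genes 75 were called lower with TMM factors, beside 3.87% of all genes, and 0 under all scalings. Their share of nuclear UMIs was nonetheless 22.2, 15 and 17.4% in the over 50% class against 26.7, 25.6 and 25.3% in the at most 10% class. Hist1h2ap, with 1326, 392 and 569 nuclear CPM against 2524, 2400 and 2054, was among the 4 genes lower under all scalings (-2.92, adjusted p = 8.5e-11). Hist1h1b was another, with 4 UMIs in the class. The 11 other genes named on the lower side (Rrp8, Dohh, Dync1li1, Poldip2, Polr3g, Pmpcb, Spr, Sap30bp, Epb41l4a, Cndp2 and S100a10) had 1 UMI each in the class and are not described singly. The lean towards long transcripts was also there, with the shortest length group at 34.9, 28.4 and 31.1% of nuclear UMIs against 43.5, 43.0 and 43.0%, and the longest at 11, 16.5 and 14.8% against 9.04, 9.03 and 8.86%.

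Set against each other directly in the libraries at 5 and 50 ng/ml, the over 50% class had 25 of 6705 genes higher than the 10 to 50% class (0.373%) and 10 lower (0.149%), 0.522% in all. Under all 3 scalings 25 were higher and 5 lower (0.0746%). Lars2 was 4.41-fold higher (adjusted p = 1.76e-22), Ttn 4.43-fold, Mid1 4.13-fold, Ppp4c 3.54-fold, the chromatin remodeller gene Chd7 3.51-fold, Elavl1 2.81-fold, Cnpy1 2.76-fold and Ankrd11 2.62-fold. Malat1 went the other way, with 4341 and 3484 nuclear CPM in the over 50% class against 8845 and 5791 in the 10 to 50% class at 5 and 50 ng/ml (1.96-fold lower, adjusted p = 0.0331). Lower with it were, among others, Psmd11, Nelfa, Snhg4, St13, Eno1 (1.85-fold lower), Eif3c (2.24) and Eif4g2 (1.93). Zfp653, Acvr1b, Ints1 and Wdhd1 were higher on 9 to 27 UMIs in the over 50% class. Without the library at 50 ng/ml, and with that at 0 ng/ml in its place, 0 genes were called with edgeR (45 at an unadjusted p under 0.05). That setting drops 1 library and brings in another with 4 and 8 barcodes, and which of the changes lost the calls was not tested.

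The over 50% class was not uniform. At 5 ng/ml 28 barcodes had 50 to 90% and 47 had over 90% mitochondrial UMIs, and at 50 ng/ml 16 and 72 did. Ribosomal protein mRNAs took 24.7% of the nuclear UMIs of the over 90% barcodes and 12.3% of those of the 50 to 90% barcodes at 5 ng/ml, and 24.0 and 11% at 50 ng/ml. Chromatin and large nuclear protein genes took 0.367 and 0.973%, and 0.371 and 1.19%, in the same order. Malat1 took 0.0823 and 0.532%, and 0.125 and 0.564%. At 5 ng/ml the at most 10% class held 25.6% for ribosomal protein mRNAs, 0.333% for chromatin genes and 0.323% for Malat1. The over 90% barcodes were thus near it in the first and second of these and below it in Malat1, while the 50 to 90% barcodes had fewer ribosomal protein mRNAs and more of the others. In these sums Gm42418 stayed high in both, at 4.57 and 5.06%, and 4.31 and 5.09%. Summed Lars2 did so too, at 0.352 and 0.278%, and 0.212 and 0.228%. Droplets also hold RNA released from other cells, and 286 nuclear UMIs per barcode leave room for it, and what part of these UMIs was such free RNA was not tested.

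Along the mitochondrial share the ribosomal protein level ran down and up again. Over all libraries its median per barcode was 25.6 to 26.8% of nuclear UMIs in the 4 bins up to 10% mitochondrial UMIs. It was 19.9, 14.6 and 12.9% in the bins of 10 to 20, 20 to 30 and 30 to 50%, 12.0% in the bin of 50 to 80% (18 barcodes), 15% in that of 80 to 90%, and 24.7 and 27.7% in those of 90 to 95 and 95 to 100%. The Gm42418 median was 0.105 to 0.164% up to 10%, 1.16, 0.595 and 0.892% between 10 and 50%, 4.38 and 6.41% between 50 and 90%, and 4.11 and 1.57% above 90%. For Lars2 it was 0.00481 to 0.00816% up to 10%, and 0.0239, 0.0204 and 0.0272% between 10 and 50%. Between 50 and 90% the Lars2 median was 0.170 and 0.309%, and above 90% it was 0 in both bins.

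**Figure D5:**
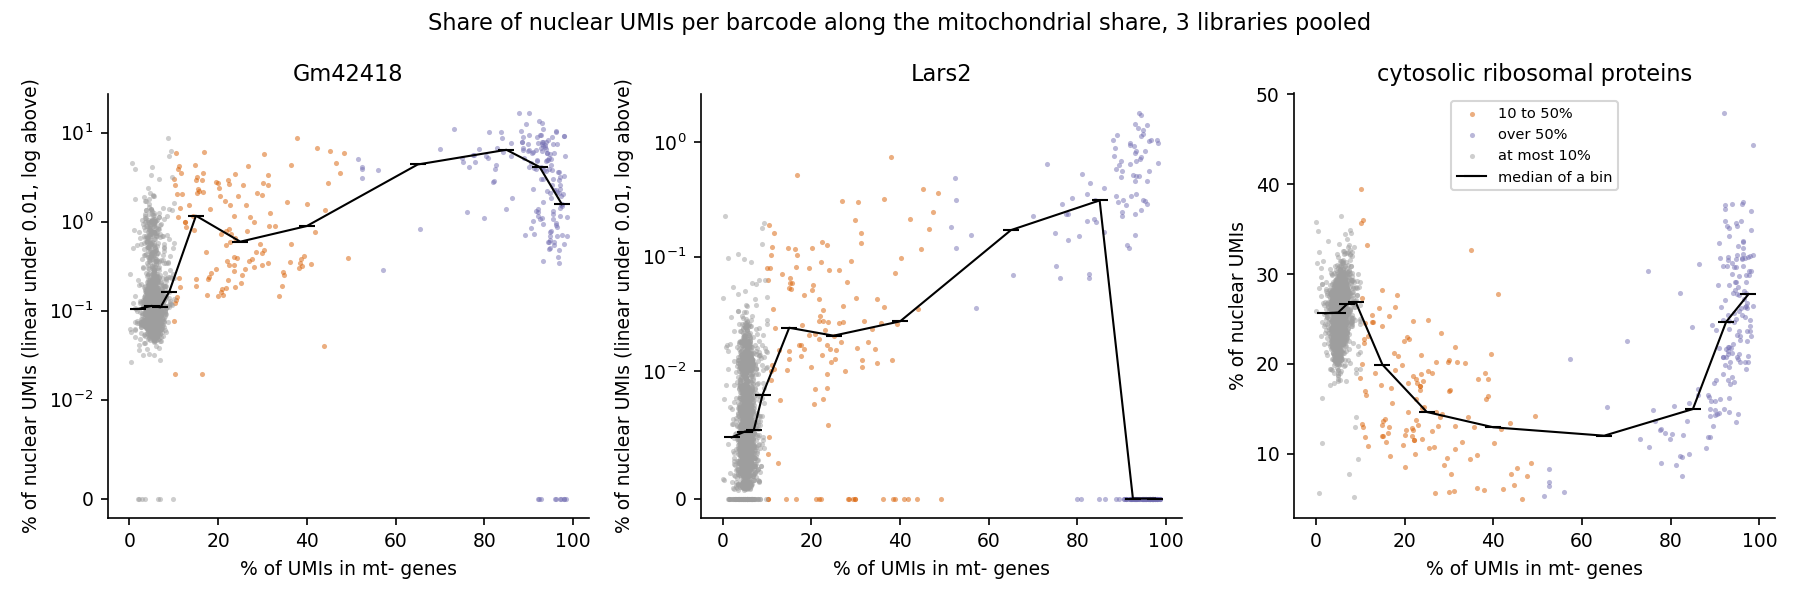
Share of nuclear UMIs of Gm42418, Lars2 (vertical axes linear under 0.01 and log above) and all cytosolic ribosomal protein genes (linear axis) per barcode against the mitochondrial share, 3 libraries pooled, with bin medians as a line. Gm42418 is highest in the bin of 80 to 90% with 6.41%, while ribosomal protein genes fall to 12.0% in the bin of 50 to 80% and stand at 27.7% above 95%.

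Shallow barcodes with few mitochondrial UMIs offer a contrast at low depth. At 5 ng/ml 25 barcodes of the at most 10% class lay within the nuclear depths of the over 50% class, with 43010 nuclear UMIs in all. In their sum ribosomal protein mRNAs took 22.3%, Gm42418 0.528%, Lars2 0.0140%, Malat1 0.486%, chromatin genes 0.449% and histone genes 0.423%. Against the over 50% class at 5 ng/ml, where these shares were 15, 4.95, 0.294, 0.434, 0.841 and 0.0800%, Gm42418 and Lars2 were lower in the shallow barcodes and histone genes higher. At 50 ng/ml 4 such barcodes were found, with 4779 nuclear UMIs, Gm42418 at 1.30% and Lars2 at 0.0628% (3 UMIs). At both doses the Gm42418 share of the shallow barcodes lay above that of the whole at most 10% class.

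Doses were also set side by side within a class. These ratios carry counting intervals and no test, and the sum at 0 ng/ml is 99011 nuclear UMIs from 4 barcodes in the 10 to 50% class. Over all genes, 23.2% differed at least 2-fold for 5 against 0 ng/ml and 21.9% for 50 against 0 ng/ml in the 10 to 50% class, and 2.73 and 4.13% in the at most 10% class. Etv4, an ETS factor induced by FGF, had 0, 69.2 and 100 nuclear CPM at 0, 5 and 50 ng/ml in the 10 to 50% class, and 1.24, 52.6 and 94.7 in the at most 10% class. Spry4, a feedback inhibitor of the pathway, had 0, 24.6 and 85.8 against 0.0744, 14.8 and 32.3. Both had 0 UMIs in the 10 to 50% class at 0 ng/ml, so no fold is given. In the over 50% class a difference of these genes from 0 ng/ml was not detectable with 2262 nuclear UMIs at 0 ng/ml. Between 50 and 5 ng/ml, 342 of 6982 genes of the 10 to 50% class (4.9%) and 581 of 8087 genes of the over 50% class (7.18%) differed at least 2-fold, against 7 of 5642 genes (0.124%) in the at most 10% class. The sums of the mitochondria-rich classes are far smaller, and the part of counting error in these counts was not tested.

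Over 1708 genes, log2 nuclear CPM of the 10 to 50% class correlated with that of the at most 10% class of the same library at a Pearson r of 0.94, 0.89 and 0.95, and that of the over 50% class at 0.59, 0.81 and 0.81. These are correlations across genes, which are not independent replicates, and the classes share library and gene set.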

How the data were processed

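The authors deposited UMI counts per gene and barcode, made with Cell Ranger 4.0.0 per the file headers, against mm10 per the submitters' processing notes. How cell barcodes were called is not given in the sources used here, nor which of trypsin and Accutase detached the cells of each library. Depth was 42726514, 75184072 and 81409975 UMIs at 0, 5 and 50 ng/ml. The 13 mt- genes were taken out of all nuclear totals. Of 32285 features, 32235 matched GENCODE M21 by identifier, which gave coordinates, sequences and transcript lengths.

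UMIs were summed per library and class, with at least 5 barcodes per class, and fitted with edgeR 4.0.16 in R 4.3.3 (TMM factors, filterByExpr, glmQLFit and glmQLFTest, library as a block, which pairs the classes of a library by their shared capture). DESeq2 1.42.0 was an alternative. Shares carry exact binomial intervals. Doublets were called with Scrublet in scanpy 1.11.5, and all barcodes were kept. The edgeR steps were tested on simulated counts. Where 2 classes of 1 library were compared per barcode, no test was made.

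Named genes were the 12 with the largest fold in each direction among those called, of at least 20 nuclear CPM in the higher class and with the same direction in every fitted library, without predicted and ribosomal protein genes, and members of the gene lists. The members and lists were chosen with earlier results of these data known. Alternatives covered scaling, filters, limits of the classes, thinning to 1000 nuclear UMIs, a depth-matched comparison, 1 fit over 3 classes and leaving out libraries, and the leave-outs with the library at 0 ng/ml and the split of the nuclear-retained list were added after seeing the data. Results for a few withheld genes are not reported here.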

Additional observations from a re-analysis of the deposited data

Results flagged for a closer look

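For 4 gene lists and 5 mt- genes the 95% counting interval of the ratio to the at most 10% class lay wholly above 1 in at least 1 library and wholly below 1 in another, and the libraries whose interval left out 1 are given. These differences between doses were not tested, since each dose is 1 library, and at 0 ng/ml they rest on 4 barcodes of the 10 to 50% class and 8 of the over 50% class. In the 10 to 50% class, the share of nuclear UMIs of p53 target genes was 0.769 times that of the at most 10% class at 0 ng/ml, 1.19 times at 5 ng/ml and 1.07 times at 50 ng/ml. For S phase genes the ratios were 0.843, 1.26 and 1.08 in this order of doses, and for splicing and ribonucleoprotein genes 0.920, 1.33 and 1.18. For genes of the 2-cell-like programme they were 0.0929, 0.104 and 12.7, the last set by 2 barcodes that held 1426 of 1434 UMIs. The share of mt-Nd2 among mitochondrial UMIs had ratios of 1.12, 0.869 and 0.874.

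In the over 50% class mt-Nd6, the mitochondrial protein-coding gene on the minus strand, had ratios of 1.70, 0.671 and 0.608 at 0, 5 and 50 ng/ml. mt-Nd5, which overlaps it by 14 bases on the other strand, had 1.12, 0.831 and 0.817. mt-Nd3 had 0.870, 1.04 and 1.05. mt-Nd1 had 1.03 at 0 ng/ml and 0.956 at 50 ng/ml.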

How the results depend on the processing

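The number of genes called depended on the setting more than the direction of single genes did. For the 10 to 50% against the at most 10% class (4034 calls), DESeq2 gave 2014, thinning 537 and a depth-matched comparison 780, and leaving out a library gave 146 to 4034. The upper value is the main fit itself, which already lacked the library at 0 ng/ml. For the over 50% against the at most 10% class (606), median-of-ratios factors gave 182, DESeq2 64, a minimum of 10 UMIs in every sum 10, 1 fit over 3 classes 916 and thinning 356, and leaving out a library gave 3 to 793. For the over 50% against the 10 to 50% class (35), DESeq2 gave 9, no filter 16, a minimum of 10 UMIs 76, 1 fit over 3 classes 54, all libraries 23 and thinning 12, and leaving out a library gave 0 to 35. Here too the upper value is the main fit itself. Without the library block the 3 counts were 3367, 607 and 25. No paired analysis was possible because each dose is 1 library and the doses share fewer than 2 replicate numbers; classes of 1 library were paired by the library block. A depth-matched comparison of the over 50% class could not be fitted. The at most 10% class held 0, 25 and 4 barcodes of that depth at 0, 5 and 50 ng/ml. Only the library at 5 ng/ml thus had the 5 barcodes per class that a fit needed. The log2 ratios of Ccser1 and Scamp1 reversed to -0.20 and -0.24 in the depth-matched comparison, and that of Hyou1 to -0.55 after thinning. Where not stated, the cause was not tested.

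With a lower limit of 8%, the 10 to 50% class held 3.75, 8.58 and 9.54% of barcodes at 0, 5 and 50 ng/ml. With 15% it held 4.92% at 50 ng/ml, and with 20% it held 4.92% at 5 ng/ml and 3.79% at 50 ng/ml. The ratio of genes detected at equal depth to the at most 10% class was 1.09 at 500 and 1.17 at 3000 nuclear UMIs for the 10 to 50% class (1.13 at 1000), and 1.03 and 1.25 for the over 50% class (1.12 at 1000). Genes that differed between 50 and 5 ng/ml numbered 1313 at 1.5-fold, 92 at 3-fold, 92 at a minimum of 50 CPM and 699 after thinning in the 10 to 50% class, and 1462, 76 and 166 at 1.5-fold, 3-fold and after thinning in the over 50% class. Of the other results and settings for single genes and values, 1406 kept direction and call, 354 kept the direction and lost the call, 4 moved and 3 reversed, as given. The 1406 include settings that repeat the main fit. Fewer than 400 nuclear UMIs in the median over 50% barcode limit that class to its most abundant transcripts.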
